A study of Mus musculus with 3 samples.

Results

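Transcript levels of 7 genes that handle extracellular ATP, NAD and adenosine were followed in CD4+ T cells with the label Th1, the helper subset that makes interferon gamma. The genes are Entpd1, Nt5e, Cd38, Ada, Adora2a, P2rx7 and P2rx4. They were taken by name, and each was found as 1 row among 23337 gene symbols. The tumour group was 1 library from B16-F10 tumours, a transplantable mouse melanoma line. The lymphoid group was 2 libraries whose tissue label joins spleen, lymph nodes and draining lymph nodes. The strain of both groups was C57/Bl6j, the genotype wild-type and the age 7 weeks, with no other allele or agent named in the labels. The labels do not say whether animals were pooled or whether the lymphoid libraries came from separate animals. P-values therefore measure differences against the spread between the 2 lymphoid libraries alone, which could be technical in origin. The stated interest of the series is the effect of the tumour environment on gene expression and splicing. The values are 1 per gene, so transcript forms could not be compared.

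Dying and activated cells release ATP and NAD, which act as danger signals on T cells. CD39, the product of Entpd1, cuts ATP down to AMP, and CD73, the product of Nt5e, turns AMP into adenosine. CD38 breaks down NAD. Adenosine acts on T cells mainly through the A2A receptor encoded by Adora2a, which raises cyclic AMP and dampens T cell receptor signals, and adenosine deaminase, encoded by Ada, removes adenosine by converting it to inosine. ATP itself opens the P2X4 and P2X7 channels. On mouse T cells, P2X7 can also be opened by NAD, through ADP-ribosylation by the ecto-enzyme ARTC2.2, the product of Art2b.

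The unit was inferred to be FPKM, the fragments of a gene per kilobase of its transcript, relative to all sequenced fragments. Depth was estimated at 3270000 fragments for the tumour library, and at 11460000 and 15520000 for lymphoid libraries 1 and 2. As deposited, the median tested gene was lower in the tumour library by a log2 change of -0.96. All levels below are therefore FPKM divided by median-of-ratios factors (0.58, 1.29 and 1.33 in the same order), after which that median was -0.01. The helper lineage gene Cd4 was at 73.9 scaled FPKM in the tumour library, against 67.9 in lymphoid library 1 and 59.3 in lymphoid library 2. The summed level of 6 T cell markers, of which 0 were called at a limma adjusted p under 0.05, was 503.0 against 565.3 and 565.6. Tbx21, which encodes the Th1 regulator T-bet, was at 12.9, against 18.0 and 20.2, and was not called. Of 4 Th1 markers 1 was called, and it was lower: Ifng, which encodes interferon gamma itself, was at 4.53 in the tumour library, against 12.9 and 12.0 (log2 change -1.28, limma adjusted p = 0.00535, and 0.225 with counting error added). Odorant and vomeronasal receptor genes, which T cells are not known to use, averaged 0.261 in the tumour library, against 0.0100 and 0.0434. The summed level of 8 macrophage and monocyte markers was 8.56 against 1.39 and 1.20, led by Itgam (3.95 in the tumour library), which lymphocytes can also express. Itgam was called higher (limma adjusted p = 0.00578, and 0.0640 with counting error added). C1qa was at 2.55 against 0 and 0.0946, Emr1 at 0.640 against 0 and 0.0290, and Lyz2 at 0.524 against 0 and 0.0486. Cd68, Fcgr1 and Csf1r were also highest in the tumour library, at 0.552, 0.202 and 0.133. These values rested on about 1.17, 0.990 and 1.08 tumour fragments, and that of Lyz2 on about 1.30. Fcgr1 and Csf1r lay below the receptor average of that library, and C1qb was at 0 in every library. The melanocyte gene Mlana and the B cell gene Ms4a1 were likewise at 0 in every library. The summed level of 6 melanoma cell markers, Mlana included, was 2.99 against 0.995 and 1.18. Pmel was at 1.49 against 0.798 and 0.835 and was not called, and Sox10 was at 0.770 against 0.0248 and 0.0875. Dct and Tyrp1 were also highest in the tumour library, on about 1.94 and 0.971 fragments, while Tyr was lowest there, at 0.0785 against 0.172 and 0.196.

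The 3 genes called higher in the tumour library were Cd38, Ada and P2rx4. Calls rest on limma across the 9800 genes that averaged at least 1 FPKM, on log2(scaled FPKM + 1), at an adjusted p under 0.05 after Benjamini-Hochberg adjustment. The remaining 4 genes were not called, and 0 of the 7 were called lower. Among all tested genes, 12.7% were called higher and 9.17% lower, 21.9% in all (1246 and 899 genes). As deposited the split was 465 higher and 7620 lower, and with library totals it was 4333 and 275. Every one of the 7 genes was above 1 FPKM in each library as deposited, so that none entered the test through the tumour value alone. The median log2 change of the 7 genes was 0.49. Because the tumour group is 1 library, its spread was assumed to be that of the lymphoid pair, with 1 residual degree of freedom. Limma drew each gene's spread towards that of other genes of similar level, and tests and intervals used 5.48 total degrees of freedom. With the tumour library's estimated counting error added, 3.32% of 9206 genes were called higher and 0.293% lower, and of the 7 genes the call of Cd38 alone was left. In bulk RNA, fewer cells of a type and less RNA per cell cannot be told apart, and this holds for every difference below.

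**Figure D1:**
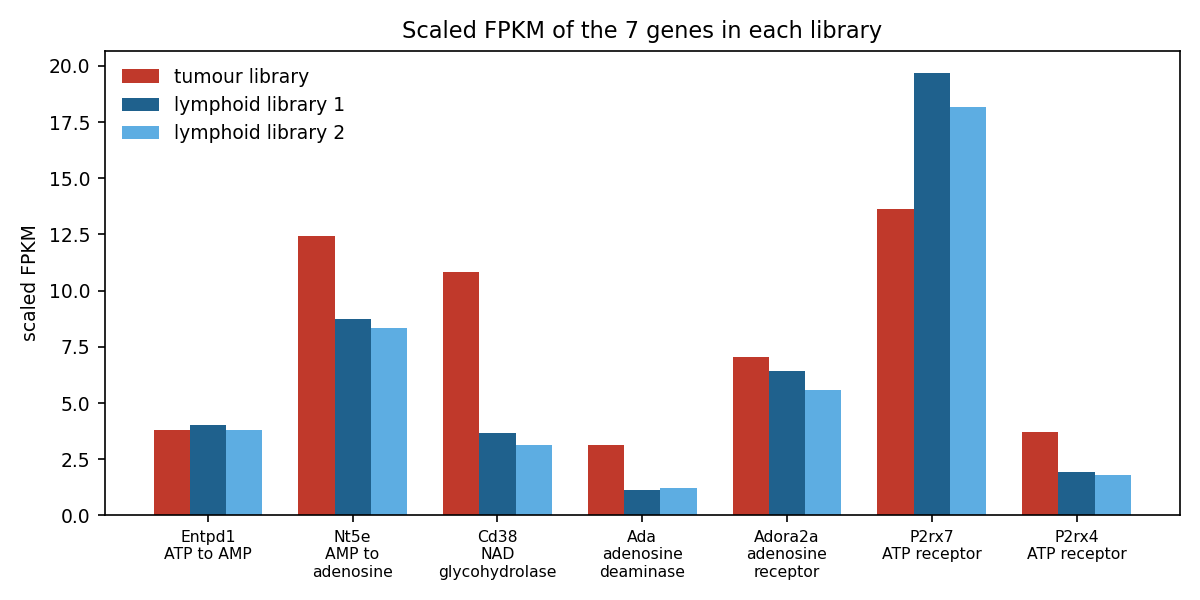
Scaled FPKM (vertical axis, from 0) of the 7 genes along the horizontal axis, with 1 bar for each library and no error bars. Cd38 stands at 10.8 in the tumour library against 3.66 and 3.13 in the lymphoid libraries, while P2rx7 stands at 13.6 against 19.7 and 18.2.

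Among the ecto-enzymes that make adenosine, neither gene was called. Entpd1 (ENSMUSG00000048120, chromosome 19, 40612366 to 40741602, GRCm38) was at 3.81 scaled FPKM in the tumour library, against 4.04 and 3.78 in lymphoid libraries 1 and 2. The tumour value lay between the lymphoid ones. Its log2 change was -0.03 with SE 0.15, and the 95% interval ran from -0.40 to 0.34 (limma adjusted p = 0.909). Entpd1 is also transcribed by macrophages and regulatory T cells. The regulatory T cell gene Foxp3 was at 5.08 in the tumour library, against 11.3 and 8.93, and was called lower (limma adjusted p = 0.0309, and 0.264 with counting error added). The part of such cells in the Entpd1 level was not tested.

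Nt5e (ENSMUSG00000032420, chromosome 9, 88327197 to 88372092) was at 12.4 in the tumour library, against 8.75 and 8.35. The tumour library was above both lymphoid libraries, by 1.42-fold and 1.49-fold. The log2 change of 0.49 (SE 0.16, 95% interval 0.10 to 0.89) did not pass after adjustment over all tested genes (limma adjusted p = 0.0804, unadjusted p = 0.0223). It rested on about 94.1 tumour fragments, the most of the 7 genes at the median transcript length. For P2rx7 that median was 1848 nt and the longest transcript 4936 nt, so this rank and the counting errors of P2rx7 depend on the length used. Within each library, which no scaling between libraries can alter, Nt5e was at 3.27 times the FPKM of Entpd1 in the tumour library, against 2.17 and 2.21 times in the lymphoid libraries. On the log2 scale these ratios were 1.71 against 1.12 and 1.14, with counting errors of 0.33, 0.12 and 0.11. The other ecto-enzymes of the list were low. Enpp1, which cleaves ATP to AMP and pyrophosphate, was at 2.90 against 2.55 and 2.10 and was not called.

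Cd38 showed the largest difference of the 7 genes. Cd38 (ENSMUSG00000029084, chromosome 5, 43868553 to 43912375) was at 10.8 scaled FPKM in the tumour library, against 3.66 and 3.13 in the lymphoid libraries. The tumour library was 2.96-fold and 3.47-fold above them. The log2 change was 1.43 with SE 0.16 (limma adjusted p = 0.00369), above that of 95.6% of tested genes. It rested on about 67.1 tumour fragments, and with their counting error added the SE was 0.23 (limma adjusted p = 0.0361). Across 9 settings the adjusted p ran from 6.5e-10 with library totals to 0.0547 for values as deposited. As deposited the log2 change was 0.42 and ended the call, while the median gene moved by -0.96. With the receptor average subtracted from each library and the scaling factors estimated again, the log2 change was 1.47. The part of low-level signal beyond that average in the Cd38 level was not tested. Cd38 is also transcribed by B cells, NK cells and myeloid cells. The summed level of 4 B cell markers was 0.646 in the tumour library, against 0.699 and 0.530, and that of 3 NK cell markers was 16.7 against 24.2 and 21.0. The NK cell sum was led by Klrb1c, at 13.4 against 23.6 and 20.1. Ncr1 and Eomes were higher in the tumour library, at 1.47 against 0 and 0.169, and at 1.78 against 0.609 and 0.724. The CD8 T cell markers Cd8a and Cd8b1 summed to 5.27, against 0.558 and 0.814. Most of this was Cd8b1, called higher at 4.77 against 0.494 and 0.783 (limma adjusted p = 0.00255, and 0.0774 with counting error added). Cd8a was at 0.503 against 0.0647 and 0.0304. The part of these cells and of the higher macrophage sum in the Cd38 level was not tested. Bst1, the paralogue that lies 24566 bases upstream of Cd38 and also encodes an NAD glycohydrolase, was at 0.225 against 0 and 0.0409, below the receptor average in the tumour library.

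Genes with the most similar levels over the 3 libraries, by Euclidean distance of log2(scaled FPKM + 1), were Tnfrsf9, Pot1b and Gm12505 for Cd38, at distances of 0.10, 0.14 and 0.21. Tnfrsf9, which encodes the costimulatory receptor 4-1BB, was at 11.0 in the tumour library, against 3.34 and 3.18. For Ada the nearest genes were Plekhn1, Frat2 and Macrod1, at 0.01, 0.05 and 0.08, and for P2rx4 they were Tssc4, Mpp5 and Clpb, at 0.03, 0.06 and 0.06. With 3 libraries many genes share a pattern, and these names are a description only.

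The promoter window of Cd38 is shown because this gene alone kept its call with counting error added. It is the RefSeq sequence (GRCm38.p6) chr5:43868559-43868858 on the plus strand, from 250 bases before to 50 bases after the annotated start. Capitals here and below mark, on either strand, the AP-1 motif TGANTCA, the cyclic AMP response element TGACGTCA and the NFAT core GGAAA. None of these motifs contains another, and no matches overlap in the windows printed. Of 32851 such windows in the table, 7.81% held TGANTCA, 1.79% TGACGTCA and 61.3% GGAAA. The Cd38 window held 1 GGAAA and neither of the longer motifs.
Cd38: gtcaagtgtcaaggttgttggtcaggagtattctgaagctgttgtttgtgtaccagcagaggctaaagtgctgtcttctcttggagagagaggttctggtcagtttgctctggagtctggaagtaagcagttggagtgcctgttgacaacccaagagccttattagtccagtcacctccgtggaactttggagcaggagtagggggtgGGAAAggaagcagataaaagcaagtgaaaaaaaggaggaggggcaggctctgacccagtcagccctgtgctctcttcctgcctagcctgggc

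**Figure D2:**
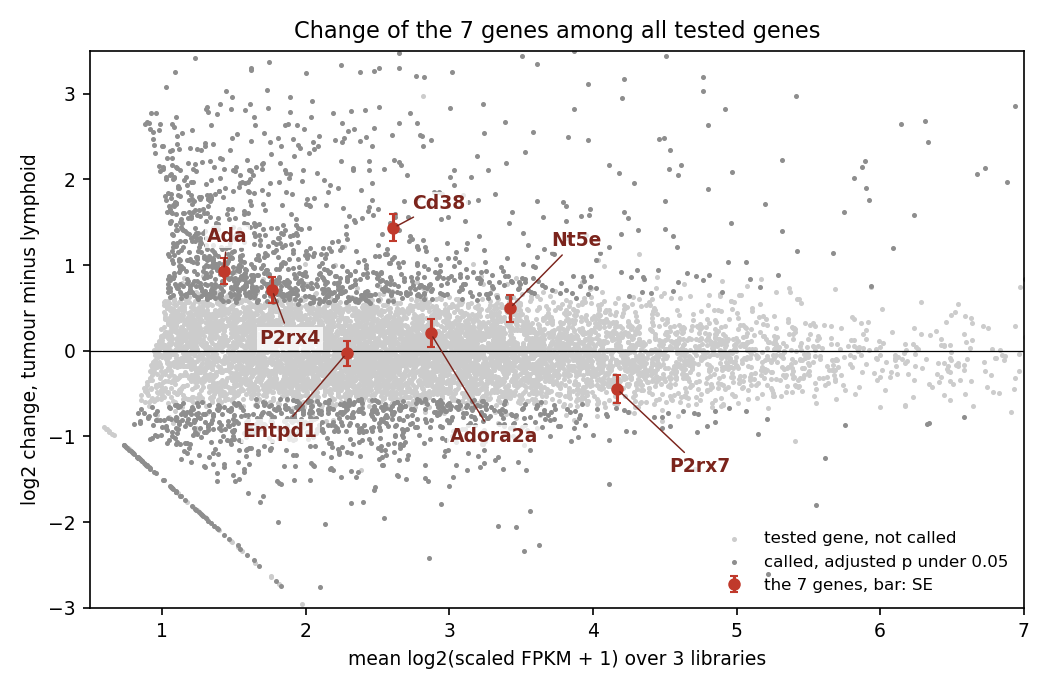
Log2 change, tumour minus lymphoid (vertical axis), against the mean log2(scaled FPKM + 1) over the 3 libraries (horizontal axis) for tested genes, with the 7 genes in red and bars for the SE. Of 9800 tested genes, 286 lie outside the axes. Cd38 at 1.43 lies above the band of genes that were not called, and P2rx7 at -0.45 lies within it.

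On the adenosine side, the degrading enzyme was called and the receptor was not. Ada (ENSMUSG00000017697, chromosome 2, 163726584 to 163750239, minus strand) was at 3.14 scaled FPKM in the tumour library, against 1.13 and 1.21 in the lymphoid libraries. The tumour library was 2.76-fold and 2.60-fold above them, and the log2 change was 0.93 with SE 0.15 (limma adjusted p = 0.0129). Ada had the lowest value of the 7 genes in every library, with about 10.02 tumour fragments. In the tumour library counting error does not separate Ada from P2rx4 and Entpd1. With counting error added the SE was 0.38 and the call ended (limma adjusted p = 0.332, over 8 settings 1.2e-06 to 0.406). As deposited the levels were 1.82 FPKM against 1.47 and 1.61, a log2 change of 0.15 that was not called.

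Most list genes of low level lay higher in the tumour library. Of 43 purine and NAD list genes below the filter, 35 were higher in the tumour library than in both lymphoid libraries, with a median of 0.587 against 0.0443 for the lymphoid mean. The share of all genes below the filter that lay higher in this way was not computed. The tumour levels of these 43 genes reached 1.72. The filter includes the tumour value and so limits how high they can lie, and they cannot be set against the levels of Ada and P2rx4. The receptor average was also subtracted from each library and the scaling factors estimated again. The log2 change of Ada was then 0.90 and that of P2rx4 was 0.70, and both calls were kept (limma adjusted p = 0.0158 and 0.0297). The effect of subtraction without new scaling was not computed. The part of the low-level difference beyond the receptor average in the levels of Ada and P2rx4 was not tested.

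Adora2a (ENSMUSG00000020178, chromosome 10, 75316877 to 75334784) was at 7.03 in the tumour library, against 6.41 and 5.56. The tumour value was above both lymphoid values, by 1.10-fold and 1.26-fold. The log2 change was 0.20 with SE 0.16 and a 95% interval from -0.20 to 0.61 (limma adjusted p = 0.412). The other adenosine receptor genes were below the filter. Adora1 was at 1.55 against 0.0133 and 0.0374, Adora3 at 0.448 against 0 and 0.0414, and Adora2b at 0 against 0.0372 and 0.0263. Within each library the ratio of Ada to Adora2a FPKM was 0.446 in the tumour library, against 0.177 and 0.217, with a counting error of 0.52 on the log2 scale in the tumour library.

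The Ada window is RefSeq chr2:163750190-163750489 (GRCm38.p6, minus strand), shown beside that of Cd38 since both genes were called higher. It held 1 GGAAA and neither longer motif.
Ada: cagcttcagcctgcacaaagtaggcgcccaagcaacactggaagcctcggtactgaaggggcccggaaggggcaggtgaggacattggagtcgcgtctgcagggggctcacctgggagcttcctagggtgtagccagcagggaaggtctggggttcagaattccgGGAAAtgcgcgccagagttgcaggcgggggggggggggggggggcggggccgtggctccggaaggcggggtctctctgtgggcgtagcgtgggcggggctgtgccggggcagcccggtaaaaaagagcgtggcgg

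The ATP-gated channels P2rx7 and P2rx4 had log2 changes of opposite sign, and the rise of P2rx4 alone was called. P2rx7 (ENSMUSG00000029468, chromosome 5, 122643911 to 122691432) encodes the low-affinity channel whose prolonged opening forms a pore and can kill T cells. It was at 13.6 scaled FPKM in the tumour library, against 19.7 and 18.2 in the lymphoid libraries. It was the one gene of the 7 below both lymphoid libraries, at 0.691 and 0.749 of their levels. The log2 change of -0.45 (SE 0.17, 95% interval -0.87 to -0.02) did not pass after adjustment (limma adjusted p = 0.120, unadjusted p = 0.0417). As deposited it was called lower, at -1.54 (limma adjusted p = 0.00269), and with library totals the sign turned, to 0.29. P2rx7 still had the highest level per length of the 7 genes in each library. In the tumour library its order with Nt5e is not fixed within counting error.

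P2rx4 (ENSMUSG00000029470, chromosome 5, 122707544 to 122729738) encodes a channel of higher ATP affinity. It was at 3.72 in the tumour library, against 1.95 and 1.82. The tumour library was 1.90-fold and 2.05-fold above them, with a log2 change of 0.71 (SE 0.15, limma adjusted p = 0.0256). About 10.5 tumour fragments carried this value, and the call ended with their counting error added (limma adjusted p = 0.466, over 8 settings 6.9e-05 to 0.466). It also ended with no filter on low genes (limma adjusted p = 0.0511). As deposited the log2 change turned to -0.14. Macrophages also transcribe P2rx4, and the part of the macrophage markers given above in its level was not tested. The ratio of P2rx7 to P2rx4 within a library was 3.66 in the tumour library, against 10.09 and 10.004. On the log2 scale this was 1.87 against 3.33 and 3.32, with counting errors of 0.49, 0.23 and 0.20.

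Both genes lie on the plus strand of chromosome 5, with 16111 bases and 0 other coding genes between them in GENCODE. Their windows are shown since these neighbours gave changes of opposite sign. RefSeq lists 2 starts for P2rx7, and the one upstream is printed (GRCm38.p6, chr5:122643677-122643976). It held TGANTCA once, from base 2 of the window, and GGAAA once. The window of the other start held none of the 3 motifs. The P2rx4 window (chr5:122707294-122707593) held 1 GGAAA. Which start was used was not measured. Of the 7 genes, 6 had a window in the table.
P2rx7: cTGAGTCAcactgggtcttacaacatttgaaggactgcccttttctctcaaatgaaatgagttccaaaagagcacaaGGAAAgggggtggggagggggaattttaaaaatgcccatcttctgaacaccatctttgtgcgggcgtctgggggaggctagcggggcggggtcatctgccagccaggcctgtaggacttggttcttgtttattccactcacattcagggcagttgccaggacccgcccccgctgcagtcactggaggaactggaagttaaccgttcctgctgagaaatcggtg
P2rx4: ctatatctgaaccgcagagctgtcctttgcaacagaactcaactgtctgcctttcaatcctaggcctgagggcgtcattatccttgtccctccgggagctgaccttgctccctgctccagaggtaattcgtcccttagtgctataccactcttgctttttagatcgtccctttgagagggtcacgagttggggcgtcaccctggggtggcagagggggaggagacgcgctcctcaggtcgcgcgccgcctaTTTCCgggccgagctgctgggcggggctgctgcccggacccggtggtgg

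The proportion of Cd38, whose product breaks down NAD, to P2rx7, whose channel NAD can open, was higher in the tumour library. Among the genes followed, Cd38 had the largest log2 change (1.43), and P2rx7 (-0.45) alone lay below both lymphoid libraries. A large difference in their ratio therefore follows from the choice of this pair. The spread of such ratios over all gene pairs was not computed. The ratio of Cd38 to P2rx7 FPKM within a library was 0.797 in the tumour library, against 0.186 and 0.172 in the lymphoid libraries. On the log2 scale this was -0.33 against -2.43 and -2.54, with counting errors of 0.27, 0.12 and 0.11. These ratios do not depend on the scaling. Counting errors leave out the variation between samples, and with 1 tumour library the difference in ratio was not tested. Art2b, whose product opens P2X7 from NAD, was at 35.4 in the tumour library, against 54.7 and 48.3, a log2 change of -0.52 that was not called (limma adjusted p = 0.112). The P2rx7 to Art2b ratio was 0.384 in the tumour library, against 0.360 and 0.377. The near-identical Art2a-ps, which lies 16104 bases from Art2b and is a pseudogene in this strain background, was called lower, at 9.33 against 19.6 and 16.1 (log2 change -0.87, limma adjusted p = 0.0301, and 0.312 with counting error added). Reads of this pair could be split between the rows, so each alone is uncertain. Their sum was 44.8 in the tumour library, against 74.3 and 64.4.

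**Figure D3:**
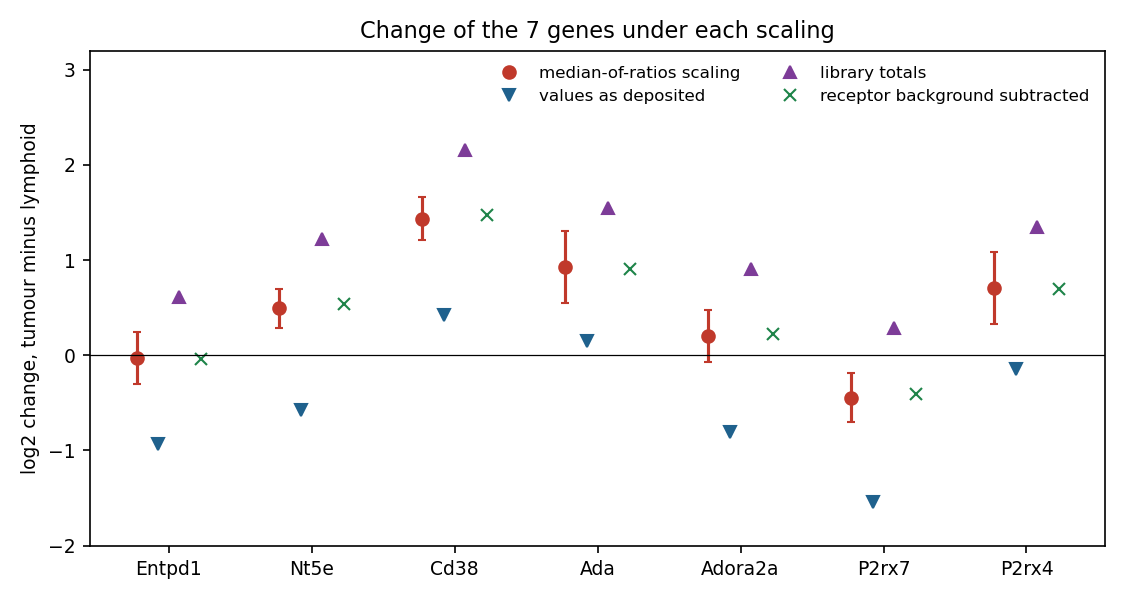
Log2 change, tumour minus lymphoid (vertical axis), of the 7 genes (horizontal axis) after median-of-ratios scaling (with bars for the SE including tumour counting error), as deposited, with library totals, and after subtracting the receptor average. Cd38 is above 0 under every one of these, from 0.42 to 2.16, and Cd38 and Ada alone keep their sign as deposited among the genes that were higher after scaling.

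The order of the genes by scaled FPKM, which is a level per length, differed between the groups. In both lymphoid libraries it ran P2rx7, Nt5e, Adora2a, Entpd1, Cd38, P2rx4 and Ada from high to low, and the ranges of neighbouring genes did not overlap. Counting errors were not set beside these lymphoid levels, and Entpd1 and Cd38 lay near each other in lymphoid library 1, at 4.04 and 3.66. In the tumour library the order ran P2rx7, Nt5e, Cd38, Adora2a, Entpd1, P2rx4 and Ada. There the top levels of 13.6, 12.4 and 10.8 had counting errors of 1.97, 1.28 and 1.32, so the order of these neighbours is not fixed at this depth. The lowest levels of 3.81, 3.72 and 3.14 had errors of 0.779, 1.14 and 0.991 and could not be ordered either. After scaling, 2 of the 7 genes, Cd38 and Ada, were at least 2-fold above each lymphoid library, beside 8.76% of all tested genes, and 0 were 2-fold below, beside 5.96%. Between the lymphoid libraries, 1.36% of tested genes were that far apart, and none of the 7 was among them. Of the 7 genes 5 were above both lymphoid libraries at all, beside 41.3% of tested genes, and 1 was below both, beside 42.6%.

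Across 12 lists of purine and NAD genes, 94 genes other than the 7 were measured and 51 of them tested. Of these 5 were called higher, 4 lower and 42 not, with a median log2 change of 0.06. Among all tested genes 12.7% were called higher and 9.17% lower, so these lists held no larger a share of calls than the background. With counting error added 2 calls were left, P2ry10 and Pde4d. P2ry10, a receptor gene of the P2Y family by sequence whose known ligands are lysophospholipids, was at 61.1 in the tumour library, against 15.3 and 12.8 (log2 change 2.05, SE 0.19, limma adjusted p = 0.0109 with counting error added). It was the one P2Y gene of 8 above the filter. Pde4d, a phosphodiesterase that degrades the cyclic AMP made after A2A stimulation, was at 11.4 against 2.44 and 2.32 (log2 change 1.88, limma adjusted p = 0.0186 with counting error added).

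In the relay downstream of the A2A receptor, 2 of 10 tested genes were called higher, Pde4d included, and 0 lower, a share near the 21.9% called among all tested genes. The median log2 change was 0.01. Pde4b, another phosphodiesterase gene, was called at 17.7 against 10.3 and 11.1 (log2 change 0.68), which ended with counting error added (limma adjusted p = 0.241). Gnas, the stimulatory G protein subunit, was at 71.8 against 70.7 and 72.2, and Prkar1a, a regulatory subunit of protein kinase A, at 40.9 against 40.5 and 40.7. Pde3b was at 21.6 against 33.6 and 33.7 and was not called (limma adjusted p = 0.0572).

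Genes of NAD synthesis and use had 2 higher and 0 lower calls of 8 tested, too few genes to read against the background. Nmrk1, a nicotinamide riboside kinase, was at 3.25 in the tumour library, against 0.914 and 0.593 (log2 change 1.28). Qprt, which makes the NAD precursor nicotinic acid mononucleotide from quinolinate, was at 3.66 against 1.54 and 1.52 (log2 change 0.88). Both calls ended with counting error added (limma adjusted p = 0.206 and 0.306), on about 10.9 and 14.2 tumour fragments. Nampt, the enzyme of the salvage route, was at 3.62 against 3.14 and 2.87 and was not called.

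Among 11 tested genes of adenosine metabolism, Ada was called higher and 2 were called lower. Beside the 21.9% called among all tested genes, these are too few genes to read as a result about the list. Aprt, which salvages adenine, was at 5.88 in the tumour library, against 9.81 and 9.77 (log2 change -0.65). Ampd2, an AMP deaminase, was at 1.13 against 2.30 and 2.32 (log2 change -0.63). These 2 calls rested on about 7.3 and 7.7 tumour fragments and ended with counting error added (limma adjusted p = 0.588 and 0.435). Pnp, which acts on the inosine that adenosine deaminase makes, was at 5.76 against 3.80 and 3.51 and was not called (limma adjusted p = 0.0552). Dpp4 was at 9.24 against 8.22 and 7.72.

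Lists of transport, release and P2X7 partner genes had 1 call between them. Lrrc8c, a subunit of volume-regulated anion channels, was at 6.64 in the tumour library, against 12.5 and 11.0 (log2 change -0.74), which ended with counting error added (limma adjusted p = 0.193). The ATP-releasing channel gene Panx1 was at 8.15 against 8.73 and 6.82. Slc17a9, also of the release list, was at 3.60 against 2.22 and 1.90 and was not called (log2 change 0.59, limma adjusted p = 0.05003). Of 3 tested nucleoside transporters 0 were called, and the most abundant, Slc28a2, which takes up purine nucleosides, was at 12.5 against 17.7 and 16.8. Of 6 tested P2X7 partner genes 0 were called, among them Adam10, a shedding protease, at 12.8 against 14.7 and 13.1. The intracellular Entpd genes had 0 calls of 4, with Entpd6 at 4.40 against 4.32 and 3.62. Entpd5 was at 2.72 against 4.88 and 4.21 (log2 change -0.57, limma adjusted p = 0.0546).

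**Figure D4:**
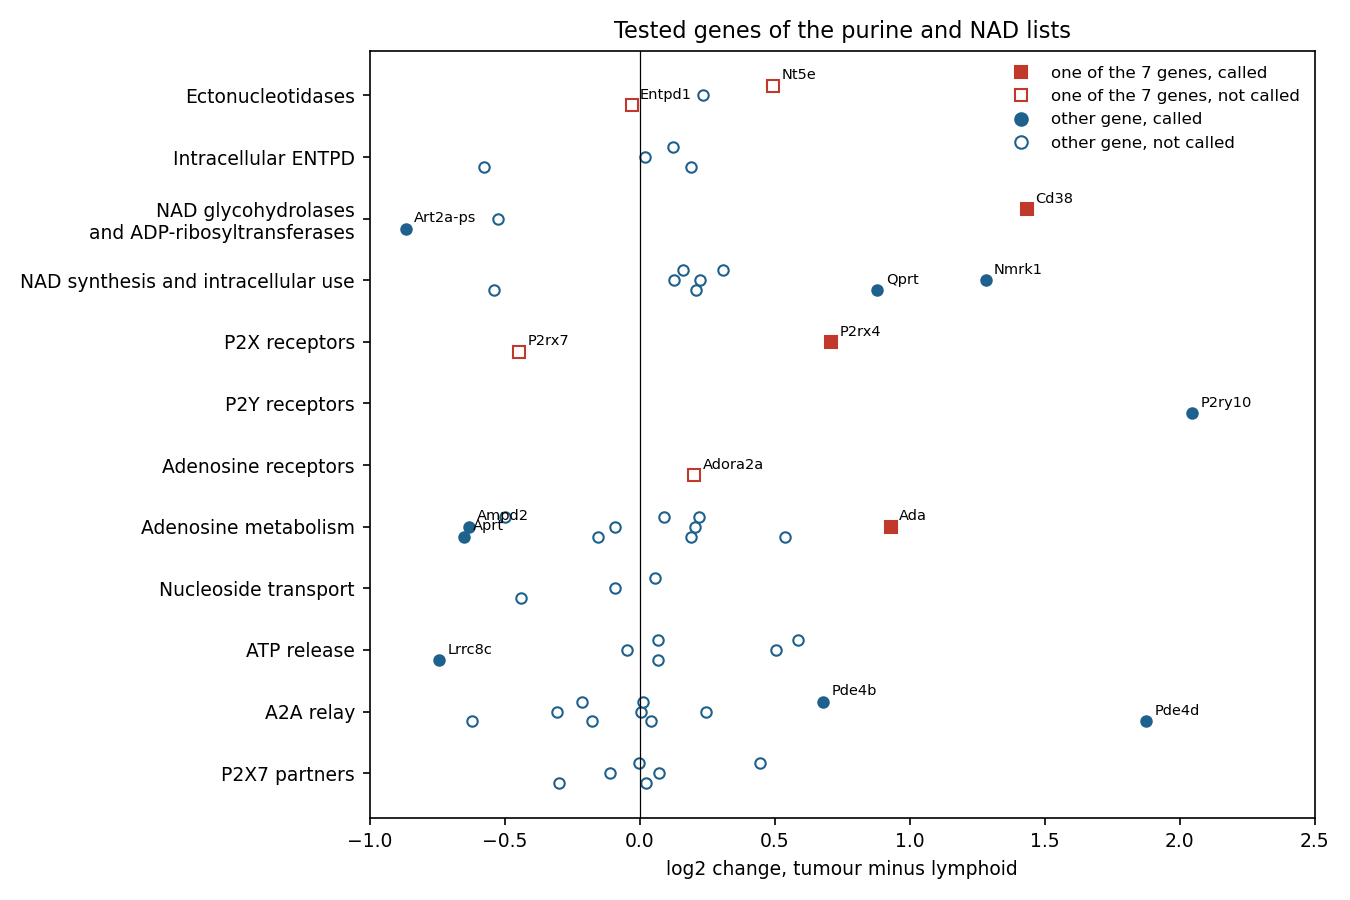
Log2 change, tumour minus lymphoid (horizontal axis), of the tested genes in 12 lists of purine and NAD genes (vertical axis, with points shifted within a list for legibility). Squares are the 7 genes and circles the others, filled where called at an adjusted p under 0.05; P2ry10 at 2.05 and Pde4d at 1.88 lie farthest to the right.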

How the data were processed

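Per the labels' protocols, stranded total RNA libraries depleted of ribosomal RNA were sequenced as paired ends. The submitters' processing notes name mm10, kallisto and DESeq2, with no roles or versions. What made the values is not given in the sources used here. Here 23832 deposited rows were read as FPKM, a unit inferred from headers and sums. Where a symbol had more than 1 row (252 symbols), the most abundant was used. Limma 3.58.1 (R 4.3.3, mean-variance trend) was run on log2(scaled FPKM + 1), and the fold change is on that scale, which understates changes of low genes. It was tested on simulated data. Depth came from the smallest steps of FPKM times length in genes with 1 transcript of at least 1000 nt under 2 FPKM (3% tolerance). Fragments per gene used the median length of coding transcripts in GENCODE M21 basic. The counting-error fit enlarges the squared SE by the Poisson variance of the tumour value for genes with a length. The receptor average left out the 2% highest of those genes, and after its subtraction the scaling factors and the filter were computed again. The 7 genes and the lists were chosen with earlier results of these data known. All list genes called are named, or the most abundant where none was; others named for their role were picked after values were seen. Other settings were values as deposited, library totals, other filters and pseudocounts, summed rows and left-out lymphoid libraries.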

Additional observations from a re-analysis of the deposited data

How the results depend on the processing

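Scaling, the filter on low genes and counting error each moved the counts of calls. As deposited, 465 genes were called higher and 7620 lower, and of the 7 genes 0 higher and 4 lower, while 0 were 2-fold higher and 2 were 2-fold lower than each lymphoid library. Calls that were higher made up 58.1% after median-of-ratios scaling and 5.75% as deposited. With library totals they made up 94.0% (4333 higher, 275 lower), the median gene moved by 0.67, and of the 7 genes 5 were called higher and 4 were at least 2-fold higher. Signs turned as deposited for Nt5e (-0.58), Adora2a (-0.80) and P2rx4 (-0.14), and with library totals for Entpd1 (0.62) and P2rx7 (0.29). With no filter, 6362 genes were called higher and 512 lower. A mean of at least 5 FPKM gave 211 and 191, and 1 of the 7 genes higher (1 at least 2-fold), since Entpd1, Ada and P2rx4 then left the test. With counting error added the counts were 306 and 27, and 1 of the 7 was higher. Otherwise the cause was not tested. Without one lymphoid library, 2 to 3 of the 7 genes were at least 2-fold higher and 0 lower, and these refits gave no test. The share of all genes at least 2-fold apart was computed only for the main setting. The 2-fold counts of the 7 genes under other settings therefore have no background beside them. Subtracting the receptor average, chosen after seeing the data, left 3 of the 7 higher. No paired analysis was possible because the tumour title carries no replicate number. Depth limits Ada and P2rx4 most.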
